A study of Rattus norvegicus with 12 samples.

Results

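The 10 genes described here are Lpo, Wfdc3, Fabp3, Chrdl2, Obp3, Clca1, Prr27, Spink8, Mfap3l and Ankrd34b. They were picked for their rise under 17β-estradiol (E2) in these same mammary gland arrays, leaving the caseins aside, so that rise is a description here and carries no test. The 10 genes were measured by 12 of the 31099 probe sets, out of 14217 genes with a single annotated symbol. Obp3 and Clca1 had 2 probe sets each and the other genes 1.

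All animals were female Sprague-Dawley rats that were ovariectomized on postnatal day 50, and abdominal mammary gland pairs were taken on day 64. The diet from day 30 held either casein, the main protein of milk, or soy protein isolate, in which plant estrogens (isoflavones) remain. E2 was delivered by a mini-osmotic pump for 14 days, and the other animals received vehicle. Each of the 4 groups (casein or soy with vehicle, casein plus E2 and soy plus E2) had 3 arrays of pooled RNA. The titles of the casein plus E2 arrays name only estradiol, and their diet is taken from the treatment protocol. The labels used here state neither the E2 dose nor the number of rats in a pool. They do not say whether the pools of a group came from separate animals, and the p-values below cover only the spread between these pools.

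Values are log2 values that were centred on each probe set's median, so they show differences between arrays and give no expression level. No gene can be ranked above another by level, and no gene can be called absent. The arrays of casein plus E2 pools 2 and 3 were almost the same (SD of their difference 0.163 over all probe sets, against 0.302 or more in the 65 other pairs). They were averaged and counted as 1 sample, so casein plus E2 has n = 2 and the other groups n = 3. Liver transcripts were high in casein pool 3 (mean of 11 liver markers 5.69, at most 0.28 on the other arrays), and skeletal muscle transcripts in casein pool 2 (mean of 13 markers 3.57) and soy pool 2 (3.78). The samples are labelled as mammary gland, although a second label field speaks of liver.

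E2 acts on the mammary gland mainly through estrogen receptor alpha in luminal cells of the ducts, where it drives duct growth and induces the progesterone receptor. Luminal cells also make and secrete the proteins of milk, among them caseins, whey proteins and antimicrobial enzymes, under prolactin and the transcription factor STAT5. In the ovariectomized rat the ovarian source of estrogen is removed, and the gland regresses unless hormone is replaced.

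The 10 genes do not share 1 cellular place. Lactoperoxidase Lpo, the protease inhibitor Spink8, the BMP antagonist Chrdl2, the lipocalin Obp3 and the chloride channel regulator Clca1 are secreted proteins, and Wfdc3 belongs to a family of secreted inhibitors. Fabp3 works in the cytosol, Mfap3l is a membrane protein and Ankrd34b is an ankyrin-repeat protein of the cell interior. Whole-gland RNA does not show which cells held the transcripts, so they are called E2-raised genes below.

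The stretch around the start of transcription (250 bases before to 50 after, RefSeq, GRCr8) was on hand for 8 of the 10 genes, all but Chrdl2 and Spink8. The promoters shown are those of the genes with the largest change in casein-fed rats (Lpo and Wfdc3), of the lipocalin gene Obp3 and of Prr27, the neighbour of the caseins. Each is written 5′ to 3′ on its gene's strand, with capitals for matches to the core estrogen receptor motif GGTCA, the STAT site TTCNNNGAA and the TATA box TATAAA.
Lpo (chr10:73123407-73123706, minus strand): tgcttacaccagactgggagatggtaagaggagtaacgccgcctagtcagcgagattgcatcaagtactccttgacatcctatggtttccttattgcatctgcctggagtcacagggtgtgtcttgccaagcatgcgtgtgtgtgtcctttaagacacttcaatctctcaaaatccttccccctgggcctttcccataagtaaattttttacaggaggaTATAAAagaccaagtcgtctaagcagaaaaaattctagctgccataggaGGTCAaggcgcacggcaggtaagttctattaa
Wfdc3 (chr3:173898245-173898544, minus strand): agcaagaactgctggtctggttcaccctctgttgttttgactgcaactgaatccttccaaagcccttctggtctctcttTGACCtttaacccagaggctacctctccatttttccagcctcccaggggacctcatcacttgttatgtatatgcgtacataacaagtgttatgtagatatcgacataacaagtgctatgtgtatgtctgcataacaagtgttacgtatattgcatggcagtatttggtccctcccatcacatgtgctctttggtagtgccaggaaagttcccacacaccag
Obp3 (chr5:79640626-79640925, minus strand): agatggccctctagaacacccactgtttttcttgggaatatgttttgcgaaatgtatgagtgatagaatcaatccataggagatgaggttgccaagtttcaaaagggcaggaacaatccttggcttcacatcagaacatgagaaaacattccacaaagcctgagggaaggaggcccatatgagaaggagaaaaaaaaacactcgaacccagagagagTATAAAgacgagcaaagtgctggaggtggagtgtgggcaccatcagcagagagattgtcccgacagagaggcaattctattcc
Prr27 (chr14:20527812-20528111, minus strand): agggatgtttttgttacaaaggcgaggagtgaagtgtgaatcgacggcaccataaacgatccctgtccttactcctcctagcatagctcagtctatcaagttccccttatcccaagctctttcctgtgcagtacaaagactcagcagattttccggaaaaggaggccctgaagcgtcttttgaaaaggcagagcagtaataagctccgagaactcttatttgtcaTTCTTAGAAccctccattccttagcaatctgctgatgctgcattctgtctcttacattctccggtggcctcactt

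Both strands were searched. The full estrogen response element, which is the core motif, 3 free bases and the core motif's reverse complement and so always overlaps the core motif, was in 0 of the 8 promoters and in 0.0255% of the 27457 promoters of all genes. The core motif was in 4 of the 8 (Lpo, Wfdc3, Clca1 and Mfap3l), against 40.2% of all promoters. The STAT site was in 1 of the 8, Prr27, where it began 25 bases before the start, against 8.68% of all promoters. A TATA box lay 31 bases before the start of Lpo and 33 before that of Obp3, against 14.3% of promoters with 1 anywhere in the window. These matches are letters in a short window and say nothing about the binding of a factor.

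The first genes described are an enzyme and inhibitors of secreted fluids. Lpo encodes the heme peroxidase that makes milk and saliva antibacterial. In casein pools 1 to 3 it stood at -0.79, -0.87 and -0.60, and in casein plus E2 pools 1 to 3 at 3.32, 3.64 and 4.05. In soy pools it stood at -0.67, -1.04 and -0.89, and in soy plus E2 pools at 1.69, 1.97 and 0.60. The vehicle arrays of both diets lay close together, and the soy plus E2 arrays lay between them and the casein plus E2 arrays without touching either. The rise was 4.34 ± 0.34 with casein (log2 change ± SE of the fit, a 20.2-fold rise) and 2.29 ± 0.31 with soy (4.88-fold).

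Wfdc3 encodes a protein of the WAP four-disulfide core family, whose members include the whey acidic protein and antiproteases of mucosal surfaces. It stood at -0.54, -2.31 and -0.57 with casein and at 3.15, 3.39 and 3.37 with casein plus E2. With soy it was at -1.90, -1.77 and -2.11, and with soy plus E2 at 2.64, 1.89 and 0.54. Casein pool 2 was low among the casein arrays, while the soy arrays were low together. The rise was 4.40 ± 0.62 with casein and 3.62 ± 0.56 with soy.

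Spink8 encodes a Kazal-type serine protease inhibitor. Its casein values were -1.45, -0.51 and -0.74, and its casein plus E2 values 0.66, 1.49 and 1.28. The soy arrays were at -1.12, -1.96 and -1.82 and the soy plus E2 arrays at 1.29, 1.53 and 0.51. Groups with and without E2 did not overlap, and the rise was 1.92 ± 0.39 with casein and 2.74 ± 0.35 with soy.

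Carriers of small lipophilic molecules rose as well. Fabp3 is the fatty acid binding protein of heart and muscle, which the mammary gland also makes. Its values were -0.98, -1.70 and -0.99 with casein and 2.52, 3.01 and 2.89 with casein plus E2. They were -1.65, -1.45 and -2.24 with soy and 2.41, 2.87 and 0.98 with soy plus E2. The change was nearly the same number in both diets, 3.96 ± 0.49 and 3.86 ± 0.44. Although Fabp3 is a muscle gene, it was at -1.70 and -1.45 in the pools with high muscle markers, casein pool 2 and soy pool 2, within the range of the other vehicle arrays (-2.24 to -0.98).

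Obp3 is a lipocalin, a barrel-shaped carrier of odorants and other small molecules, and belongs to a cluster of near-identical genes that includes the major urinary proteins. It was at -1.45, -1.60 and -1.01 with casein and at 2.42, 1.46 and 1.57 with casein plus E2. With soy it was at -0.10, -0.87 and -1.43, and with soy plus E2 at 0.64, 0.88 and 0.10. Soy pool 1 and soy plus E2 pool 3 nearly met, so the groups with and without E2 were closest in this gene. The rise was 3.32 ± 0.40 with casein and 1.34 ± 0.36 with soy. Its probe sets gave 3.14 and 3.50 with casein and 1.44 and 1.24 with soy. The array design marks 1 of them as open to cross-hybridisation, so the value may include related lipocalins. Mup5, the major urinary protein gene measured here, changed by 0.87 ± 0.29 averaged over diets and did not pass (limma adjusted p = 0.076).

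Among genes of signalling and ion transport, Chrdl2 encodes a chordin-like protein that binds bone morphogenetic proteins outside the cell. It was at -1.17, -0.93 and -0.75 with casein and at 2.51, 2.51 and 2.50 with casein plus E2. The soy arrays were at -1.22, -1.16 and -1.59 and the soy plus E2 arrays at 2.45, 2.68 and 0.75. All E2 arrays but soy plus E2 pool 3 lay within a narrow band, and the rise was 3.46 ± 0.46 with casein and 3.28 ± 0.41 with soy.

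Clca1 encodes a secreted regulator of calcium-activated chloride channels, known from goblet cells. Its values were -0.71, -2.53 and -1.75 with casein and 1.41, 1.75 and 1.86 with casein plus E2. They were -1.15, -1.14 and -2.79 with soy and 1.80, 1.91 and 0.71 with soy plus E2. The vehicle arrays spread widely in both diets, with casein pool 2 and soy pool 3 lowest. The rise was 3.27 ± 0.62 with casein and 3.17 ± 0.56 with soy, and the probe sets gave 3.36 and 3.18 with casein and 3.34 and 3.01 with soy.

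Prr27 encodes a proline-rich protein from within the casein gene cluster. It was at -0.65, -2.19 and -0.76 with casein and at 1.86, 1.88 and 2.0 with casein plus E2. It was at -0.93, -1.42 and -2.23 with soy and at 1.82, 1.91 and 0.65 with soy plus E2. As for Clca1, casein pool 2 and soy pool 3 were the low arrays of their groups, and the rise was 3.10 ± 0.54 with casein and 2.98 ± 0.48 with soy.

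Averaged over diets, Mfap3l (1.53) and Ankrd34b (1.78) had the smallest changes of the 10, and both had the larger value in soy-fed rats. Mfap3l was at -0.20, -0.76 and -0.31 with casein and at 0.33, 0.66 and 0.74 with casein plus E2. It was at -1.16, -1.02 and -1.31 with soy and at 1.29, 1.34 and 0.20 with soy plus E2. The soy arrays lay below every casein array, and the rise was 0.94 ± 0.32 with casein and 2.11 ± 0.29 with soy. Ankrd34b was at -0.45, -0.62 and -0.65 with casein and at 0.45, 1.09 and 1.55 with casein plus E2. It was at -0.52, -0.56 and -0.53 with soy and at 1.84, 2.06 and 0.79 with soy plus E2. Its vehicle arrays were the tightest of the 10 genes, and the rise was 1.46 ± 0.35 with casein and 2.10 ± 0.31 with soy.

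**Figure D1:**
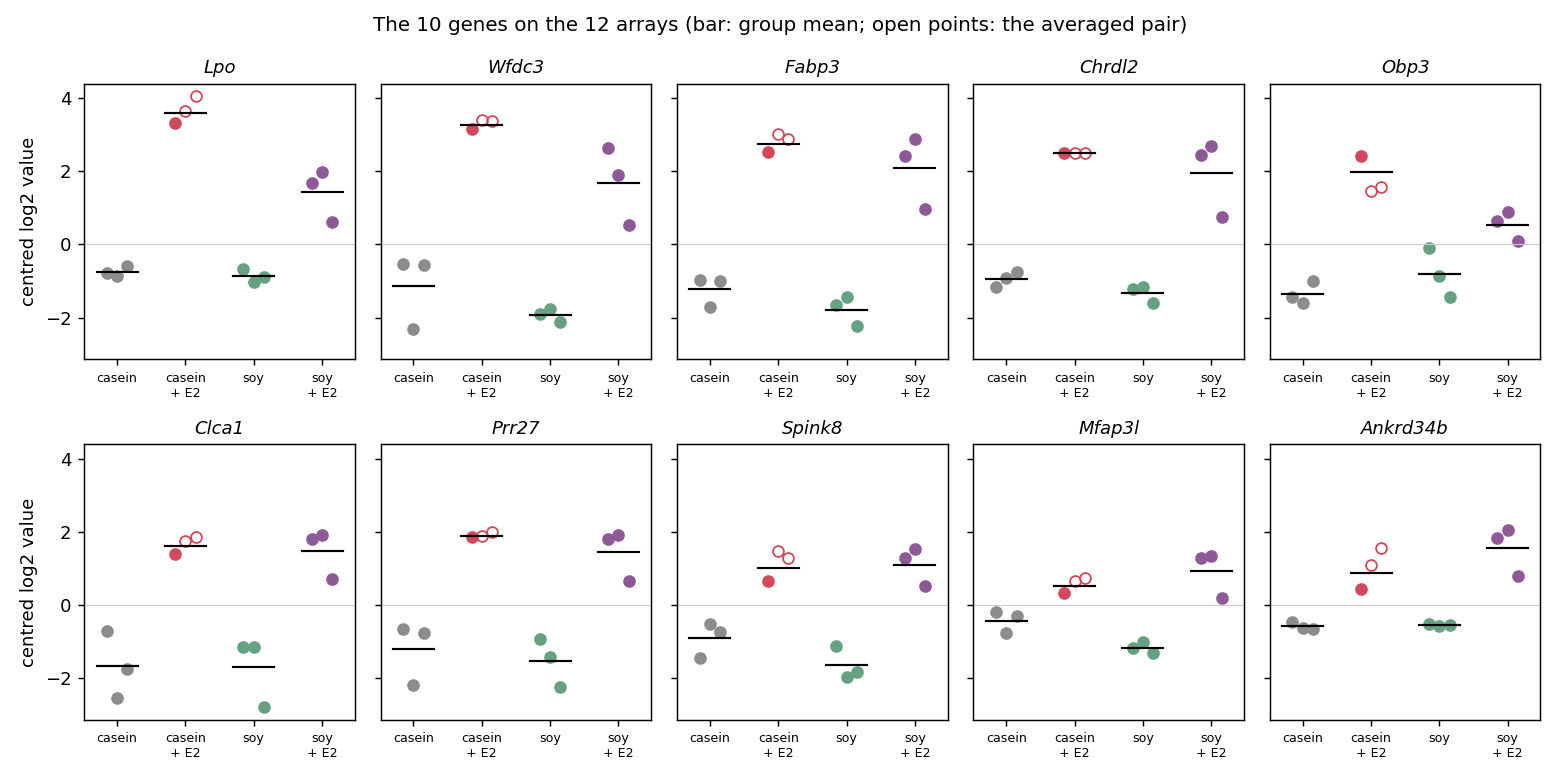
Centred log2 values (vertical axis) of the 10 genes on each array, by group, with bars for group means and open points for casein plus E2 pools 2 and 3, which count as 1 sample. In every panel the E2 arrays lie above the vehicle arrays, and soy plus E2 pool 3, the right-hand point of its group, is the lowest of its group.

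With E2 the groups did not overlap in 10 of the 10 genes in casein-fed rats, in soy-fed rats or over both diets. Of all genes 22.5%, 12.6% and 4.26% had E2 arrays wholly above the vehicle arrays in those comparisons. Since the genes were chosen on these contrasts, nothing follows from that count. The fit called 2.43% of all genes for E2 with casein and 0.218% with soy (0.0352% lower). The median change of the 10 genes was 3.30 with casein and 2.86 with soy, against 0.017 and -0.002 over all genes. In the order of change with casein, Prr27 (3.10, place 11) was followed by Pgr (3.09) and Areg (3.02), which are not among the 10. Spink8 (place 42), Ankrd34b (place 120) and Mfap3l (place 298) came lower. With soy, Mfap3l (2.11) and Ankrd34b (2.10), with C3 (2.10) between them, were followed by Zbtb40 (2.06), and Obp3 (place 106) came lower. The 10 genes are not a full list of the top. Wap (5.07 with casein and 6.06 with soy) rose more than any of them. With soy so did Saa3 (4.69), Areg (4.62) and the casein gene Csn2 (4.38). Glycam1 (3.79 ± 1.23) and Slc34a2 (3.31 ± 0.6) with casein moved as far as several of the 10. With soy so did Orm1 (2.92 ± 1.07), Aadat (2.72 ± 0.46) and Cxadr (2.71 ± 0.46). Averaged over diets Orm1 did not pass (limma adjusted p = 0.0602).

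**Figure D2:**
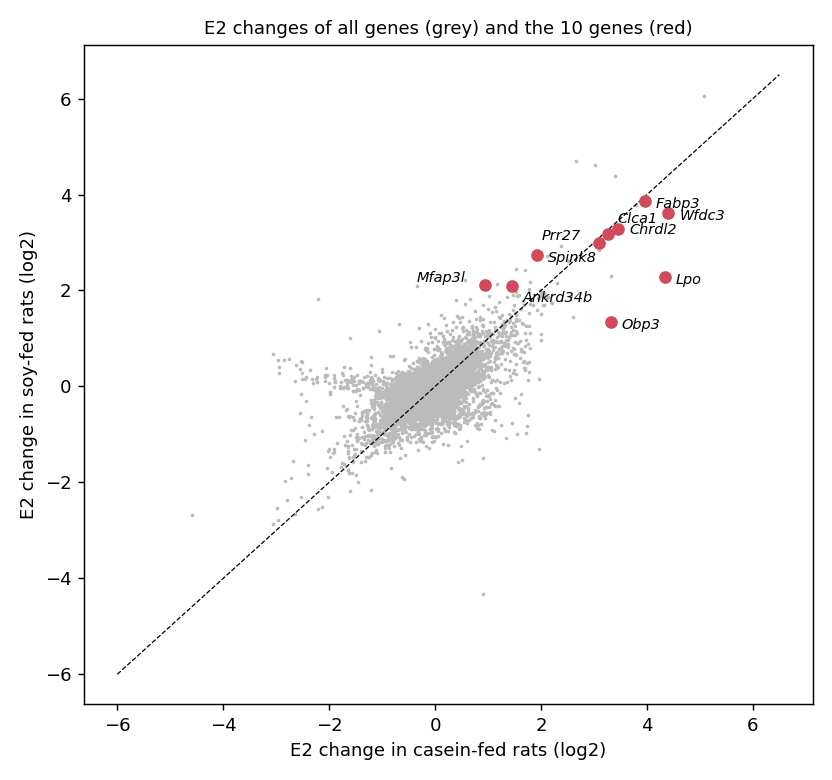
E2 change in casein-fed rats (horizontal axis, log2) against E2 change in soy-fed rats (vertical axis, log2) for 14217 genes in grey and the 10 genes in red, with a dashed line of equal change. Lpo and Obp3 lie below the line, Mfap3l, Ankrd34b and Spink8 above it, and Fabp3, Chrdl2, Clca1 and Prr27 close to it.

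The measured rise was not the same in both diets for every gene. The rise in soy-fed rats minus that in casein-fed rats was -2.05 ± 0.46 for Lpo, -1.98 ± 0.54 for Obp3, -0.79 ± 0.83 for Wfdc3, 0.64 ± 0.47 for Ankrd34b, 0.82 ± 0.53 for Spink8 and 1.17 ± 0.43 for Mfap3l. For Fabp3, Chrdl2, Clca1 and Prr27 it lay between -0.18 and -0.09, with errors of 0.62 to 0.84. The genes were chosen for their E2 rise, from which these differences are built, so they are given without a test. Over all 14217 genes the test of this difference called 0 (limma), with 929 at an unadjusted p under 0.05.

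Whether soy itself changed the 10 genes was tested on the diet difference averaged over vehicle and E2, whose errors are nearly unrelated to the contrasts used in the choice (correlation -0.15 with the casein rise and 0.0 with the soy rise, from the sample numbers). Lpo was lower with soy by 1.14 (-1.14 ± 0.23, limma adjusted p = 0.336) and Wfdc3 by 1.18 (-1.18 ± 0.42, adjusted p = 0.685), and neither passed. In all, 0 of the 10 genes passed, and so did 0% of all genes, with 1005 of 14217 at an unadjusted p under 0.05. The estimate was below 0 for 9 of the 10, with a median of -0.41 against -0.01 over all genes, and above 0 only for Ankrd34b (0.36 ± 0.23). Without soy plus E2 pool 3 the median was -0.18 and 7 of the 10 were below 0. The 10 genes moved together from pool to pool (median r within groups 0.648), so they are not 10 separate observations. On the same average 1 of 18 luminal markers (median -0.26) and 0 of 11 basal markers (median -0.14) were above 0. Lymphocyte markers went the other way, with 8 of 8 above 0 (median 1.44), and 0 of these markers passed. The part of cell content in the diet differences was not tested. The share of all genes below 0 was not computed, and no diet effect follows from these counts.

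Single-gene 95% intervals show how little these arrays fix the diet difference. They ran from -1.66 to -0.62 for Lpo and from -2.12 to -0.25 for Wfdc3, which exclude 0 before any correction for the number of genes. For Clca1 the interval ran from -1.02 to 0.86, for Prr27 from -1.20 to 0.43 and for Mfap3l from -0.63 to 0.33. A change of 1.5-fold in either direction lies within the interval of Clca1, so no claim of equal levels can be made from it.

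Split by hormone, the Lpo values of the diets lay apart with E2 and close together without. With E2 Lpo was lower with soy by 2.16 (-2.16 ± 0.34, limma adjusted p = 0.191), and without E2 it was -0.12 ± 0.31 (adjusted p = 0.929). Its E2 value was the second lowest of all 14217 genes, yet it did not pass, and adjusted p over the alternatives ran from 0.0344 to 0.765. The low end came from counting the near-identical casein plus E2 arrays as separate samples. Obp3 was at -1.43 ± 0.40 with E2 (adjusted p = 0.671) and 0.55 ± 0.36 without, and Wfdc3 at -1.58 ± 0.62 (adjusted p = 0.95) and -0.79 ± 0.56. Lpo, Wfdc3 and Obp3 were the 3 of 10 genes whose soy plus E2 arrays all lay below the casein plus E2 arrays, as did 12.8% of all genes, and 0 of 10 lay wholly above (10.5%). The median diet difference of the 10 genes with E2 was -0.49, with 3 above 0. Without soy plus E2 pool 3 it was 0.01, with 5 above 0. Leaving out single arrays, the value with E2 ran from -2.44 to -1.75 for Lpo, -2.05 to -1.0 for Wfdc3 and -1.59 to -0.97 for Obp3. Without E2, Mfap3l was the 1 gene of 10 with all soy arrays below the casein arrays (-0.74 ± 0.29, adjusted p = 0.447), as were 5.51% of all genes, and 0 of 10 had them all above (7.79% of all genes). Array weights gave Mfap3l -0.78 with limma adjusted p = 0.0487 (0.0487 to 0.926 over the alternatives), in a fit that called 1588 genes. These split contrasts share arrays with the choice of genes. Their errors correlate with those of the casein rise at -0.6 with E2 and 0.45 without. With the errors of the soy rise they correlate at 0.45 with E2 and -0.5 without. Low soy vehicle values thus raise the soy rise of a gene such as Mfap3l and lower its diet difference without E2. Of all genes 0.00703% passed with E2 and 0% without, with 0 of the 10 in either.

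**Figure D3:**
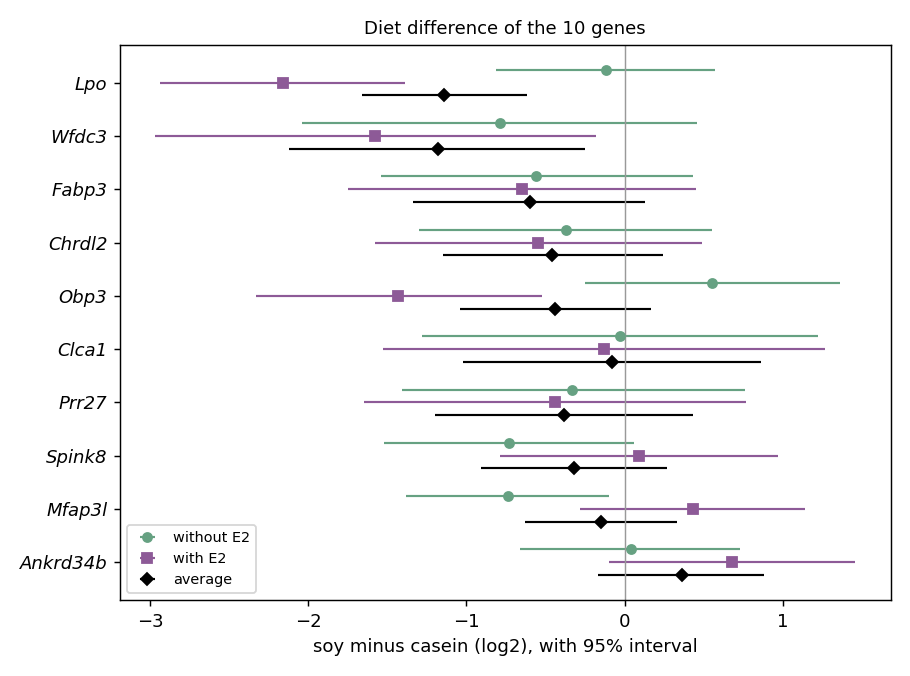
Soy minus casein (horizontal axis, log2) for each of the 10 genes without E2 (circles), with E2 (squares) and averaged (diamonds), with bars for single-gene 95% intervals from the fit. Lpo with E2 (-2.16) stands farthest from 0, and most other intervals cross 0.

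Within a group the genes moved together from pool to pool. Over the 45 pairs of the 10 genes, r across the 11 samples was 0.68 to 0.991 (median 0.917), over samples that include the E2 difference. After group means were taken out, r was 0.077 to 0.967 with a median of 0.648, and above 0 in 45 of 45 pairs, over the same 11 samples and arrays. Soy plus E2 pool 3 was the lowest array of its group in 10 of 10 genes, with a mean of 0.58 over the 10 against 1.79 and 1.90 in pools 1 and 2. Measured against the soy mean on the log2 scale, its rise was 53.4% (Ankrd34b) to 70.4% (Spink8) of that in the other soy plus E2 pools. Soy pool 3 was lowest in 7 of 10 genes (mean -1.69 against -1.04 and -1.24), and casein pool 2 in 7 of 10 (-1.40 against -0.84 and -0.81). Casein plus E2 pool 1 was lowest in 8 of 10, by less (1.86 against 2.09 and 2.18). The shares of all genes lowest in these pools were not computed, so the counts cannot be read as a trait of the 10. Genes outside the 10 that rose with E2 were also lowest in soy plus E2 pool 3. Among them were Wap (1.22 against 3.27 and 3.09) and Extl1 (0.29 against 1.22 and 1.56). Mup5, which did not pass the test of the E2 change, was at 0.55 in that pool against 0.05 and 1.57.

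Luminal markers were lowest in the same pools, and basal markers were not in every case. The mean of 18 luminal markers was -0.81 in casein pool 2, where the other casein pools had -0.05 and 0.02, and -1.20 in soy pool 3, against -0.15 and -0.48. In soy plus E2 pool 3 it was -0.02, against 0.39 and 0.29. The mean of 11 basal markers was also lowest in casein pool 2 (-0.47 against 0.04 and -0.12) and soy pool 3 (-0.95 against -0.22 and -0.48). In soy plus E2 pool 3 the basal mean was 0.12, between -0.11 in pool 1 and 0.37 in pool 2, although all 10 genes were lowest there. By group the luminal mean ran from -0.81 to 0.02 with casein, 0.37 to 0.46 with casein plus E2, -1.20 to -0.15 with soy and -0.02 to 0.39 with soy plus E2. The basal mean ran from -0.47 to 0.04, 0.16 to 0.21, -0.95 to -0.22 and -0.11 to 0.37 in the same order. In bulk tissue fewer cells of a type and less RNA per cell cannot be told apart, and because values are centred it cannot be said which markers are at background. The part of epithelial content in the changes of the 10 genes was not tested.

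Soy plus E2 pool 3 also stood apart in other cell types' markers. The adipocyte mean of 9 genes was 0.06 there against -1.35 and -0.79 in pools 1 and 2, and the mast cell mean of 8 genes was -0.19 against -1.37 and -1.06. Progesterone receptor Pgr was at 0.82 there against 2.21 and 2.24. Casein pool 3, the 1 array high in liver transcripts, had a mean of -0.81 over the 10 genes, against -0.84 and -1.4 in casein pools 1 and 2. Casein pool 2 had the highest muscle mean (3.57 against 1.71 and 0.41) and adipocyte mean (0.88 against 0.41 and 0.02) of its group. Soy pool 3 had neither, with a muscle mean of -0.38 against 3.78 in soy pool 2 and an adipocyte mean of 0.29 against 0.61 in soy pool 1. It did have the highest lymphocyte mean of its group, 2.44 over 8 genes against -1.86 and 2.04 in soy pools 1 and 2. In casein pool 2 (-1.3) and soy plus E2 pool 3 (1.02) the lymphocyte mean lay between those of the other pools. The part of liver, muscle, fat or lymphocyte content in the low values was not tested.

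**Figure D4:**
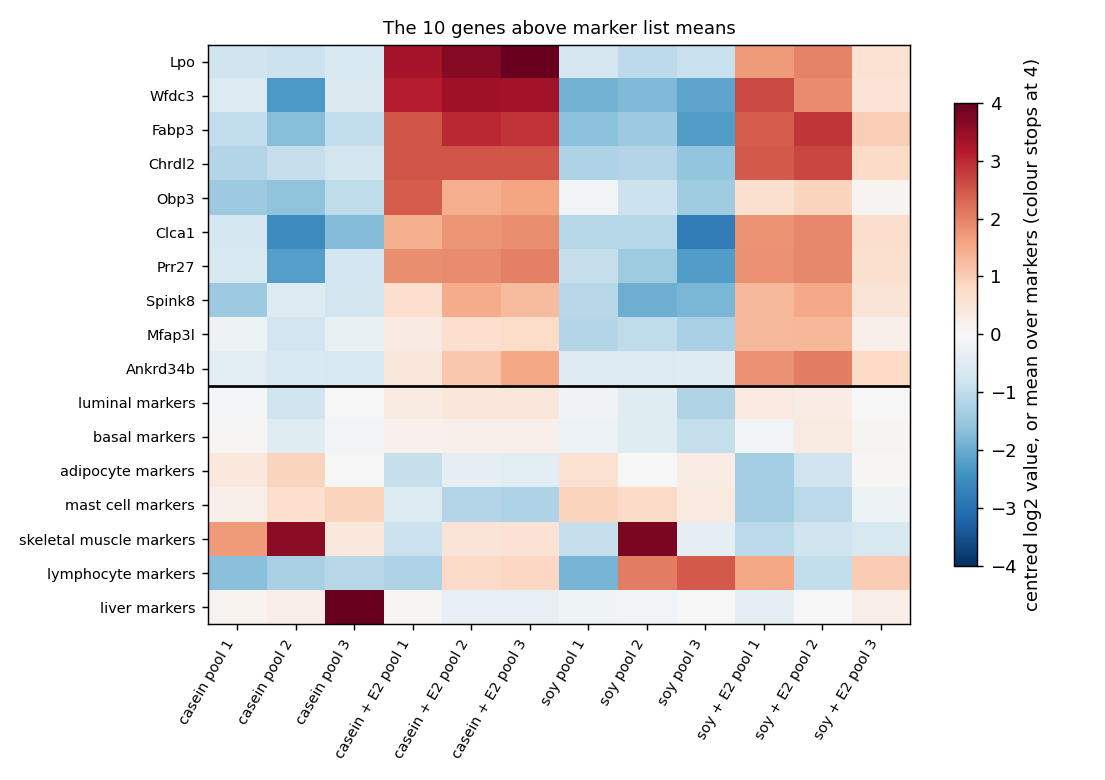
Centred log2 values of the 10 genes (upper rows) and means of marker lists (lower rows) on the 12 arrays (columns), with red above and blue below the median array. For most of the 10 genes and the luminal markers, casein pool 2, soy pool 3 and pool 3 of soy plus E2 are paler or bluer than the rest of their groups.

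The genes whose pattern over the 11 samples was most like the mean of the 10 were Pgr (r = 0.992), Extl1 (0.989), Gpatch4 (0.983), Gpr89b (0.983) and the zinc transporter gene Slc30a4 (0.981). Pgr was the nearest gene to Fabp3 (0.99) and to Chrdl2 (0.986). Lpo was nearest to the carbonic anhydrase gene Car2 (0.986), which likewise had a smaller rise with soy (1.44) than with casein (2.60). Ankrd34b was nearest to Msln (0.992) and to the acute-phase gene Saa3 (0.981), both higher with soy plus E2, with rises of 1.96 against 1.52 and 4.69 against 2.65. Prr27 was nearest to Aldoc (0.99), Wfdc3 to Bex3 (0.986), Clca1 to Cyth2 (0.979), Mfap3l to Hook2 (0.972), Obp3 to Fuom (0.967) and Spink8 to Lurap1 (0.963). These correlations are descriptions over samples that include the E2 difference, and r within groups was not computed for them.

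Most relatives of the 10 genes did not pass the test of the E2 change. Changes are averaged over diets, and limma called 12.2% of all genes in that comparison, 6.73% higher and 5.51% lower. Of 14 other WAP-domain, Kunitz and Kazal inhibitors 3 rose and 0 fell, with the whey acidic protein gene Wap at 5.56 ± 0.62 and the Kunitz inhibitor genes Spint2 at 0.96 ± 0.23 and Spint1 at 0.80 ± 0.20. The median of the 14 was 0.09. Of 14 other lipocalins 1 rose, the iron-siderophore binder Lcn2 (1.08 ± 0.26), and 1 fell, the retinol carrier Rbp4 (-1.51 ± 0.28).

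Fatty acid binding and uptake genes passed at a share close to that of all genes, 3 of 23. Of these 1 rose, the retinoic acid binding protein gene Crabp2 (1.97 ± 0.29), and 2 fell, the fat cell form Fabp4 by 0.91 and lipoprotein lipase Lpl by 0.85, with a median of -0.24. Of 34 genes of BMP signalling 1 rose, Id2 (0.53 ± 0.13), and 3 fell, the antagonist Nog by 1.15, Bmp2 by 0.63 and Bmp6 by 0.25. Chrdl1, the closest relative of Chrdl2, was at -1.18 ± 0.42 and did not pass (limma adjusted p = 0.0961), and Chrd was at -0.09 ± 0.07.

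Lactoperoxidase uses hydrogen peroxide, so its list held other heme peroxidases and sources of peroxide. Of 11 genes 2 rose, Duoxa1, the maturation factor of dual oxidase (1.48 ± 0.29), and xanthine oxidoreductase Xdh (0.93 ± 0.16), and Pxdn fell by 0.81. Duox2 (0.53 ± 0.19) did not pass. Of 20 Clca and chloride channel genes 5 rose and 3 fell, with Clca4l at 1.51 ± 0.26, the calcium-activated channel Ano1 at 1.38 ± 0.26 and Ano9 at 0.69 ± 0.18, while Clcn4 fell by 0.59. Clca2 (0.25) and Clca4 (0.15) did not pass. Of 12 relatives of Mfap3l and Ankrd34b and microfibril genes 0 rose and 1 fell, Mfap5 by 0.77.

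Of 24 other antimicrobial and defence proteins of milk 11 rose and 0 fell, with a median of 0.76. They were led by Wap, the mucin-like Glycam1 (3.78 ± 0.83), Saa3 (3.67 ± 0.62) and Muc1 (1.49 ± 0.29). Of 13 casein cluster genes other than Prr27 4 rose, Csn2 (3.88 ± 0.89), Csn3 (1.69 ± 0.21), Csn1s1 (1.03 ± 0.18) and Sult1e1 (0.89 ± 0.21). Of 26 genes listed as estrogen targets 8 rose and 0 fell, with Areg at 3.82 ± 0.40, Pgr at 2.96 ± 0.26, Elf5 at 1.98 ± 0.34 and Greb1 at 1.45 ± 0.14. Of 18 luminal markers 8 rose and 1 fell, and of 11 basal markers 5 rose. The lists overlap, so some called genes count more than once. Elf5 is also a luminal marker here and Fabp4 an adipocyte marker. Among the defence proteins, Wap is also on the inhibitor list, Lcn2 on the lipocalin list and Xdh on the peroxidase list. Of the other marker lists, 7 of 9 adipocyte, 7 of 8 mast cell and 3 of 7 endothelial genes fell, 1 of 8 keratinocyte genes rose, and 0 of 13 skeletal muscle, 0 of 8 lymphocyte and 0 of 11 liver genes passed. The median change of the 13 muscle genes was -1.73, with 0 above 0, and array weights called 11 of the 13 lower in a fit that called 23.3% of all genes. Without casein pool 2 and soy pool 2, where 1.74% of all genes passed, the counts of risen genes were 3 of 24 defence, 3 of 13 casein cluster, 5 of 26 estrogen target, 3 of 18 luminal and 1 of 11 basal genes, and 1 of 14 inhibitors, 1 of 23 fatty acid genes and 0 of the lipocalin, BMP, peroxidase and chloride channel genes. Of the lists with genes that had fallen, 0 of 9 adipocyte, 0 of 7 endothelial and 1 of 8 mast cell genes then fell. Without casein plus E2 pool 1, which leaves that group 1 sample, fewer genes passed in most of the lists, and the counts are left out. Without casein pool 2 alone 6.32% passed, with 9 of 24 defence, 5 of 26 estrogen target and 4 of 18 luminal genes higher.

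**Figure D5:**
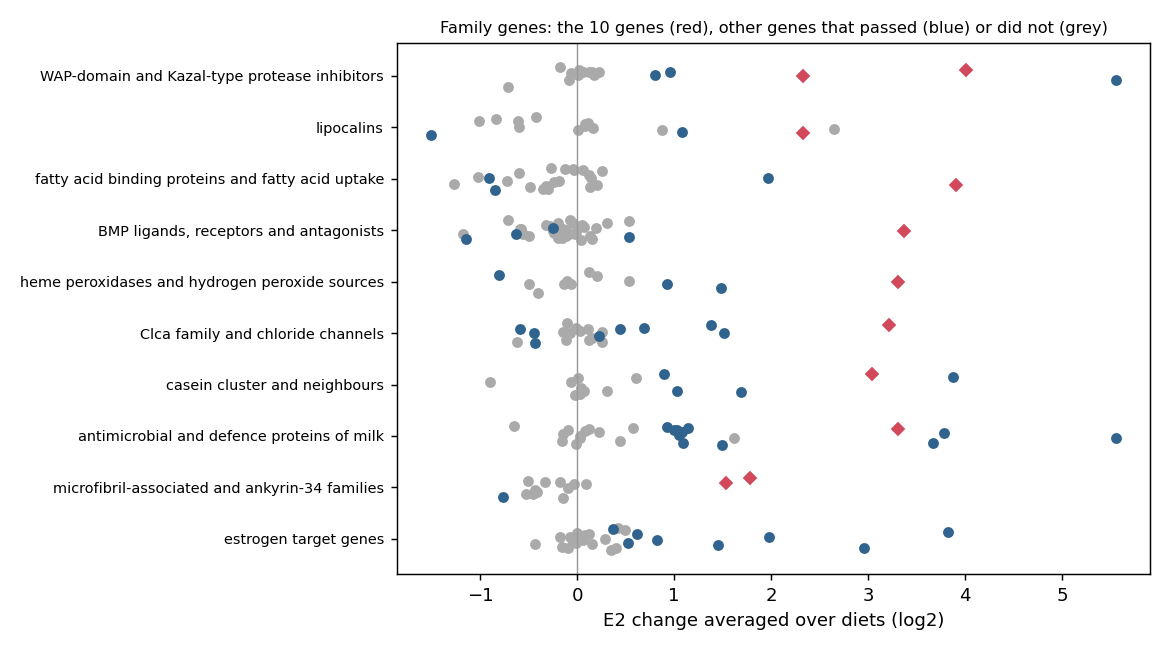
E2 change averaged over diets (horizontal axis, log2) of each measured gene in 10 family lists (rows), with the 10 genes as red diamonds and other genes in blue where they passed the test and grey where they did not. The red points run from 1.53 to 4.01, and blue points within or beyond that range include Wap (5.56), Csn2 (3.88), Areg (3.82), Pgr (2.96), Elf5 (1.98) and Crabp2 (1.97).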

How the data were processed

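The authors deposited 1 table of log2 values for 31099 probe sets on 12 Affymetrix rat arrays, made from biotin-labelled RNA (8 µg total RNA, per the labels' protocols) with GCOS, which the submitters' processing notes name without a version. How they were summarised and normalized, and the log base, is not stated in the labels. Base 2 was inferred from the range (at most 9.85 for a probe set), on which every fold depends. The deposited values were already centred, probe set by probe set, on the median over the arrays, so signal over background is unknown and no filter on dim probe sets could be applied. Array medians lay between -0.0246 and 0.0112, and no further normalization was done.

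Gene names came from GEO's platform annotation of the probe sets (20826 with 1 gene, 436 with several, 9780 unnamed here, 57 controls), and 20758 matched the RefSeq gene table (GRCr8). A gene's probe sets were averaged. The 4 group means were estimated from 11 samples with 1 linear model (limma 3.58.1, R 4.3.3, eBayes, 7 residual degrees of freedom), two-sided, with Benjamini-Hochberg adjustment over 14217 genes and a threshold of 0.05. Errors are standard errors of the fit.

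The 10 genes and the 19 gene lists (285 of 373 symbols measured) were chosen with earlier results of these data known. All 10 genes are described. Other named genes are, per list, up to 4 called genes of largest E2 change and close relatives, the genes next in order of E2 change, and those of most similar pattern. Genes next to the 10 on the chromosome are named too, while Orm1, Slc34a2, Cxadr and Duox2 were singled out with their values known. The fit was tested on simulated data. Alternatives were quantile normalization, median centring, single probe sets or the one of largest SD, pool number as a block, fits to only the groups of a contrast, 12 separate arrays, array weights, the sign of 18 spike-in probe sets as a term, and leaving out arrays.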

Additional observations from a re-analysis of the deposited data

How the results depend on the processing

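The E2 changes of the 10 genes kept their direction under every alternative, and 635 of 642 alternative values moved by less than the SD between replicates. Many of these values could not move, since leaving out a soy array does not touch the E2 change with casein, or the reverse. The genes were also picked for this direction, so the count is no support for the rise. Of 642 alternative values of the diet differences 21 changed sign and 2 came to pass. Many of these could not move either, since leaving out an E2 array does not touch the difference without E2. Sign changes under the spike-in term were Lpo 0.06, Clca1 0.25 and Prr27 0.04 without E2 and Clca1 0.09 averaged. Array weights gave Ankrd34b -0.04 without E2, 12 separate arrays gave Spink8 -0.03 with E2, and 1 Clca1 probe set gave 0.09 without E2 and 0.00 averaged. Leaving out single arrays, the values ran without E2 from -0.46 to 0.52 (Clca1), -0.82 to 0.02 (Prr27) and 0.00 to 0.10 (Ankrd34b). With E2 they ran from -0.91 to 0.06 (Chrdl2), -0.35 to 0.25 (Clca1) and -0.27 to 0.39 (Spink8), and averaged from -0.30 to 0.19 (Clca1) and -0.25 to 0.03 (Mfap3l). The cause was not tested.

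Counts of all genes called moved far more. For E2 with casein (346 in the fit described) they were 628 with quantile normalization, 200 with only the contrast's groups, 1369 with 12 separate arrays, 1408 with array weights and 10 without the arrays high in muscle transcripts, and 5 to 590 leaving out single arrays. For E2 with soy (31) they were 234, 9, 226, 2034 and 8 in that order, 73 with the spike-in term, and 0 to 760. For the E2 average (1741) they were 2641 with 12 separate arrays, 3318 with array weights, 247 without the muscle-high arrays, and 313 to 2334. For soy without E2 (0) they were 1588 with array weights and 0 to 327. For soy with E2 (1) they were 6 with quantile normalization, 2 with the probe set of largest SD, 13 with 12 separate arrays, 7 with array weights, 0 without the muscle-high arrays, 0 with single probe sets, and 0 to 3. For soy averaged (0) they were 24 with array weights and 0 to 1, and for the difference of E2 changes (0) 4 with 12 separate arrays, 5 with array weights and 1 with the spike-in term. Without casein plus E2 pool 1 that group is 1 sample, assumed to vary like the others.

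Pool numbers are shared between groups, and 5 of 18 same-numbered pairs had deviations correlated above 0.1 (-0.42 to 0.46). Pairs of unlike number were not compared, so it cannot be told whether the numbers pair the pools. With pool number as a block the counts were 13 for E2 with casein, 13 for E2 with soy, 749 for the E2 average and 0 for soy with E2. The number of arrays limits the precision, and no signal over background could be had.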

Other observations

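The genes next to the 10 on their chromosomes (RefSeq order) were looked up for the change with E2 averaged over diets. Of the 20 measured protein-coding genes nearest on each side, 6 passed and all 6 were higher (limma), with a median of 0.25, while 6.73% of all genes were called higher. They were Csn3 (1.69) and Csn2 (3.88) beside Prr27, Hpf1 (0.70) and Aadat (2.41) beside Mfap3l, Serinc2 (0.97) beside Fabp3 and Pold3 (0.31) beside Chrdl2. Aadat encodes an aminotransferase of the kynurenine and lysine pathways. It had rises of 2.11 with casein and 2.72 with soy, above those of Mfap3l in both diets (0.94 and 2.11).

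Other genes of the 10 sat beside genes that did not pass. Around Lpo the nearest measured genes were Supt4h1 (0.25 ± 0.11) and Mks1 (0.13 ± 0.07). The eosinophil peroxidase gene Epx, which lies beyond Mks1, was at -0.11 ± 0.09. Clca1 lies between Clca4 and Clca2, neither of which passed, while Clca4l, beyond Clca4, rose by 1.51. The nearest measured genes were Plxnb1 (0.23) and Nme6 (0.10) around Spink8, and Msh3 (0.22) and Fam151b (0.13) around Ankrd34b. Beside Wfdc3, its relative Wfdc10a was at 1.38 ± 0.40 and did not pass (limma adjusted p = 0.0527). Coding genes that were not measured lie between some of these neighbours.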
